A study of Mus musculus with 3 samples.

Results

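Cathepsins are the proteases of the endosome and lysosome. Members were chosen with earlier results of these data known. The rule for membership was a gene symbol of the form Cts plus 1 letter or digit in the authors' deposited table of fold changes. This rule uses no measured value. It found 10 genes with 13 transcripts among 11886 genes and 17910 RefSeq transcripts. A RefSeq gene table of GRCm38.p6 lists 22 mouse symbols of this form. The other 12 are Ctsg, Ctsk, Ctss, Ctsw and the 8 cathepsins of the rodent placental cluster (Cts3, Cts6, Cts7, Cts8, Ctsj, Ctsm, Ctsq and Ctsr), and they are not analysed here.

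The study compared 3 RNA samples with 1 library each. The WT pool held GFP-positive cells sorted from 6 tumours that grew in C57BL/6 mice, which have an intact immune system. The SCID pool held GFP-positive cells sorted from 5 tumours that grew in B6.CB17-Prkdcscid/SzJ mice, which lack mature T and B cells and keep macrophages, neutrophils and NK cells. The third sample was the cultured line itself, mT3-2D-GFP, a C57BL/6 line of KPC cells, from a mouse model of pancreatic cancer, kept in DMEM with serum and carrying a green fluorescent protein. All 3 samples come from this single line, so other pancreatic tumours are not represented. Stranded poly(A) libraries were read from both ends for 75 bases, and 40 M reads is the mean depth given in the labels; the depth of each library is unknown, because the table holds fold changes and no counts or levels.

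Each value below is a log2 difference between 2 libraries on the scale of the authors' deposited table, and a gene with 2 transcripts has their mean. WT minus SCID was obtained by turning the sign of the deposited SCID column, and it equals WT minus line less SCID minus line. There are no replicates, so no difference has a replicate check and no test was possible. The only spread in the table is that between transcripts of the same gene, with a pooled SD of 0.22 for WT minus SCID, 0.31 for WT minus line and 0.33 for SCID minus line. The levels of a gene in each library, and the order of levels between cathepsins, cannot be given. In such bulk pools a change in the share of a cell type and a change in RNA per cell cannot be told apart.

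Cathepsins are made as inactive precursors, tagged with mannose 6-phosphate, sorted to the lysosome and cut to their active form there. Most are cysteine proteases, with cathepsins D and E of the aspartic class and cathepsins A and G of the serine class. In pancreatic and other tumours they are known from both the tumour cells and the infiltrating macrophages, where they degrade internalised protein and, when secreted, matrix. Many lysosomal genes carry the E-box CACGTG, often within TCACGTGA, near their start; TFEB and its relatives bind this motif.

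The start regions of Ctsa and Ctsd are shown because they hold the longer motif, and the pair of Ctsa starts because its transcripts had unlike values in WT against SCID. The sequences come from RefSeq on GRCm38.p6, 5′ to 3′ on the gene's strand, from 250 bases before the start to 20 bases after it, with CACGTG in capitals. The upstream Ctsa start is chr2:164832622-164832891 on the plus strand, the downstream Ctsa start chr2:164833523-164833792 on the plus strand, and the Ctsd region chr7:142387808-142388077 on the minus strand.
Ctsa upstream start: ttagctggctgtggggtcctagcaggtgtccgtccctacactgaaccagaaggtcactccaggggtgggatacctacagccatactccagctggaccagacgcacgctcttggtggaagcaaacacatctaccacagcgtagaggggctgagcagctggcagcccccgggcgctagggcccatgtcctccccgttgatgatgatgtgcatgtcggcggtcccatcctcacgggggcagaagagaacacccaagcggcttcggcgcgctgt
Ctsa downstream start: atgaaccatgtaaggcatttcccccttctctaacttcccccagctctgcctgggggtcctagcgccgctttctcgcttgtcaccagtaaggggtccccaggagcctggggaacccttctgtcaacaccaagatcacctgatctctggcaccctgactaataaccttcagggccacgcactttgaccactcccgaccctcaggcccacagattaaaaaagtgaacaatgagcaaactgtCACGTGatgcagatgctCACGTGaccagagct
Ctsd: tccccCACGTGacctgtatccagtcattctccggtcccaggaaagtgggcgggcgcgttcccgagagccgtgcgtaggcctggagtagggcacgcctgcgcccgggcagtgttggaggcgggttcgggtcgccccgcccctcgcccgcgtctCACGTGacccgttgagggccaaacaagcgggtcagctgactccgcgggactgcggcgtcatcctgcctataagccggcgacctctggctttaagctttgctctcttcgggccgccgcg
Single E-boxes of Ctsl and Ctsf are shown with their neighbouring bases, at chr13:64370739-64370768 on the minus strand and chr19:4855074-4855103 on the plus strand.
Ctsl E-box: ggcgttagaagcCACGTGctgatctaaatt
Ctsf E-box: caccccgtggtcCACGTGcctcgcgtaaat

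Windows of 250 bases before to 50 bases after the start were at hand for 7 of the 10 genes, 8 windows in all; Ctsb, Ctse and Ctsh were not matched. CACGTG lay in the windows of Ctsa (downstream start), Ctsd, Ctsl and Ctsf, that is in 4 of 8, and in 7.15% of 32851 RefSeq windows of the same length; among the 11774 windows of genes with a value the share was 10.1%. The longer TCACGTGA, which contains it, lay in the windows of Ctsa and Ctsd, and in 0.974% of all windows and 1.94% of those of genes with a value. In the downstream Ctsa window TCACGTGA began at base -13 and again at base 5 counted from the start, so the second copy overlaps the first transcribed bases. In Ctsd it began at base -99, with a further CACGTG at base -245; the deposited 5′ end of the Ctsd transcript lies 43 bases upstream of the start used here, and that of Ctsf 36 bases upstream. TGANTCA, the site of AP-1 factors, was in none of the 8 windows and in 7.81% of all. TTCNNNGAA, the site of STAT factors, was in the Ctsc window alone, at base -236, and in 8.30% of all. All 4 motifs read the same on both strands, and a match is a description of these letters, not a binding site.

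Every measured cathepsin was higher in both tumour pools than in the cultured line, and Ctsh, Ctse, Ctso and Ctsf were at least 2-fold higher in both. In WT minus line all 10 genes were above 0, where 48.6% of all genes were, and 5 were higher by 2-fold or more (Ctsh, Ctse, Ctso, Ctsc and Ctsf), where 4.12% of all genes were. In SCID minus line all 10 were above 0, against 48.3% of all genes, and 4 were higher by 2-fold (Ctsh, Ctsf, Ctso and Ctse), against 3.65%. No cathepsin was lower by 2-fold in either comparison, where 2.03% of all genes were lower in WT and 2.62% lower in SCID. The median over the 10 genes was 0.95 in WT minus line and 0.70 in SCID minus line, and that over all genes was -0.01 in WT minus line and -0.02 in SCID minus line. All 10 lay in the top 25% of genes and beyond the pooled SD between transcripts in WT minus line, where 45.1% of all genes were beyond that SD. In SCID minus line 8 of 10 lay in the top 25% and 8 beyond the SD, where 44.5% of all genes were. These 2 comparisons share the library of the line.

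Between the tumour pools the differences went both ways, and for 8 of 10 genes they were smaller in size than both differences from the line; the exceptions were Ctsz and Ctsd, whose WT minus SCID values exceeded those of SCID minus line. In WT minus SCID 7 of 10 cathepsins were above 0, against 51.5% of all genes, and 0 passed 2-fold in either direction, where 0.303% of all genes were 2-fold higher and 0.0168% 2-fold lower. The values ran from -0.25 for Ctsf to 0.37 for Ctsb with a median of 0.22, against 0.0044 over all genes, and 6 of 10 lay in the top 25% of genes. In size, 6 of 10 (Ctsb, Ctsh, Ctsz, Ctsa, Ctsf and Ctsc) were larger than the pooled SD between transcripts, as were 10.9% of all genes. By value alone, Ctsa, Ctsb, Ctsc, Ctsd and Ctsh were highest in WT, lower in SCID and lowest in the line, and Ctsf was highest in SCID, lower in WT and lowest in the line. Ctse, Ctsl and Ctso were lowest in the line and differed by less than 0.1 between WT and SCID, so no order is given for those pools. Ctsz was highest in WT, and SCID and the line differed by less than 0.1. Without replicates none of these orders could be tested, and the SCID minus line value of Ctsd, 0.19, was also under the pooled SD between transcripts.

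**Figure D1:**
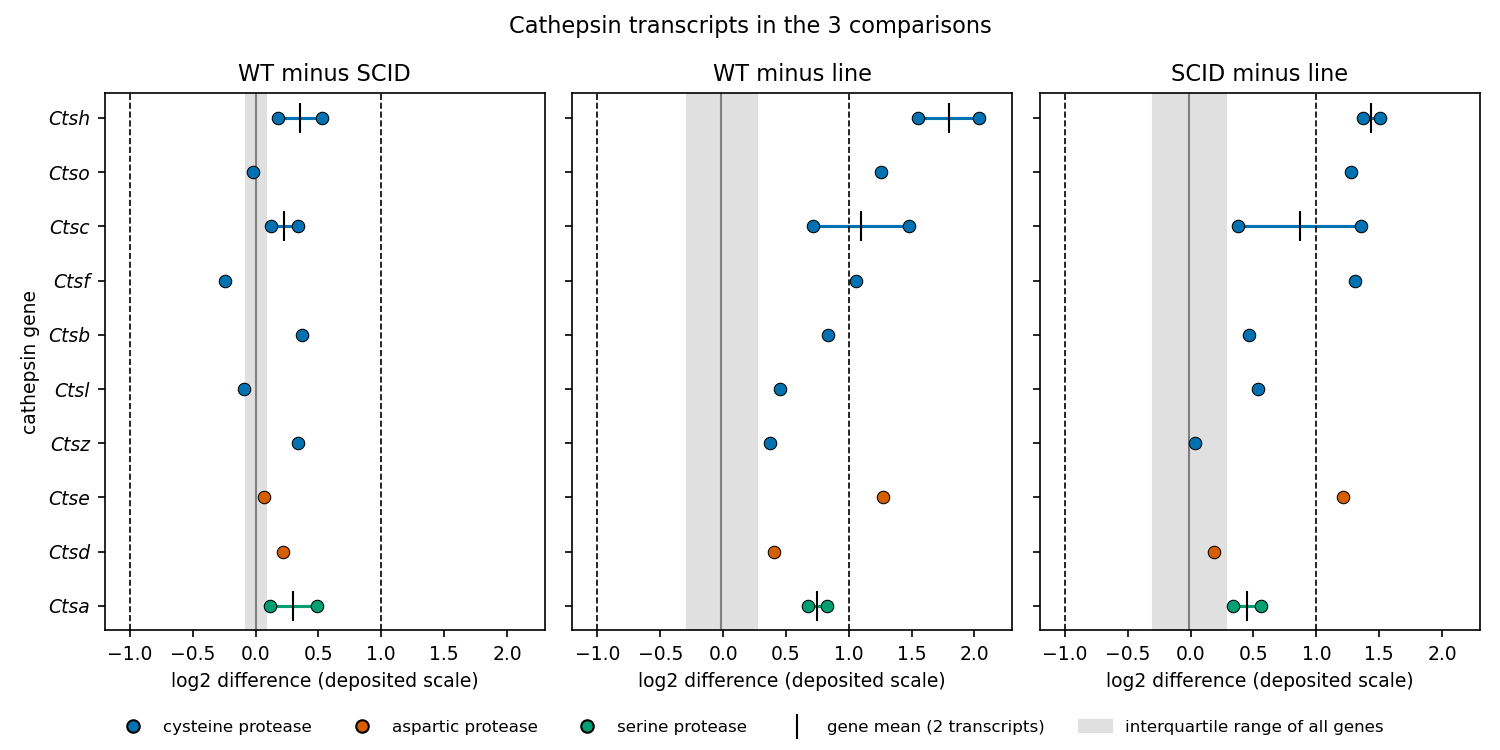
Log2 difference on the deposited scale (x axis) of each cathepsin transcript (points) by gene (y axis) for WT minus SCID, WT minus line and SCID minus line; 1 library per group, no error bars. Colours give the catalytic class, black ticks the mean of 2 transcripts, grey bands the interquartile range of all genes and dashed lines 2-fold; all points lie above 0 against the line, from 0.03 for Ctsz in SCID to 2.03 for a Ctsh transcript in WT.

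Among the cysteine cathepsins Ctsh, an aminopeptidase, stood highest against the line. In the authors' deposited table its transcript NM_007801 was at 2.03 in WT minus line (4.10-fold) and 1.503 in SCID minus line (2.83-fold), and NM_001312649 at 1.55 in WT minus line and 1.37 in SCID minus line. As a gene mean it was at 1.79 (3.47-fold), rank 73 from the top of 11886 genes in WT minus line, and at 1.44 (2.71-fold), rank 126, in SCID minus line. Both transcripts were also above 0 in WT minus SCID, NM_007801 at 0.53 and NM_001312649 at 0.18, with a mean of 0.36. The authors' deposited table gives both the same span, chromosome 9 from 90054267 to 90076095 on the plus strand, and both match 1 GENCODE model of 12 exons, so the sequence that separates them is not shown here.

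Ctsc encodes dipeptidyl peptidase I, which activates granzymes and neutrophil serine proteases, and its transcripts differed most from each other in both comparisons with the line. In the authors' deposited table the short NM_001311790 was at 1.48 in WT minus line (2.79-fold) and 1.36 in SCID minus line (2.56-fold). The full-length NM_009982 was at 0.71 in WT minus line (1.64-fold) and 0.38 in SCID minus line (1.30-fold). The gap between the transcripts was 0.77 in WT minus line and 0.98 in SCID minus line, more than the pooled SD between transcripts in both. In WT minus SCID the order was the other way round, with NM_009982 at 0.33 and NM_001311790 at 0.12. The gene call at 2-fold in WT (mean 1.10) thus rests on the short transcript, and in SCID the mean of 0.87 did not reach it.

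Both Ctsc transcripts start at base 88278085 of chromosome 7 on the plus strand, and the short one ends at 88292159 and the full-length one at 88315861. In GENCODE vM21 the short model has 4 exons and 411 coding bases, of which 318 are shared with the 1386 coding bases of the 7-exon model. Reads from the first exons can belong to either, and how the authors' counting divided them is not given in the sources used here.

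Ctsa, a serine carboxypeptidase that protects the lysosomal enzymes beta-galactosidase and neuraminidase, had transcripts that differed mainly between the tumour pools. In the authors' deposited table NM_008906, from the downstream start, was at 0.82 in WT minus line and 0.34 in SCID minus line, and so at 0.49 in WT minus SCID (1.40-fold). NM_001038492, from the upstream start, was at 0.67 in WT minus line and 0.56 in SCID minus line, and at 0.11 in WT minus SCID (1.08-fold). The start with both TCACGTGA copies printed above is that of NM_008906. The deposited starts are 901 bases apart, at 164833773 and 164832872 of chromosome 2, and both transcripts end at 164841032. GENCODE instead gives both models the upstream first exon, with 16 exons for NM_008906 and 15 for NM_001038492, and 1422 of the 1476 coding bases of NM_008906 are shared with NM_001038492; the start of NM_008906 therefore depends on the annotation. The gene mean was 0.30 in WT minus SCID, 0.75 in WT minus line and 0.45 in SCID minus line.

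**Figure D2:**
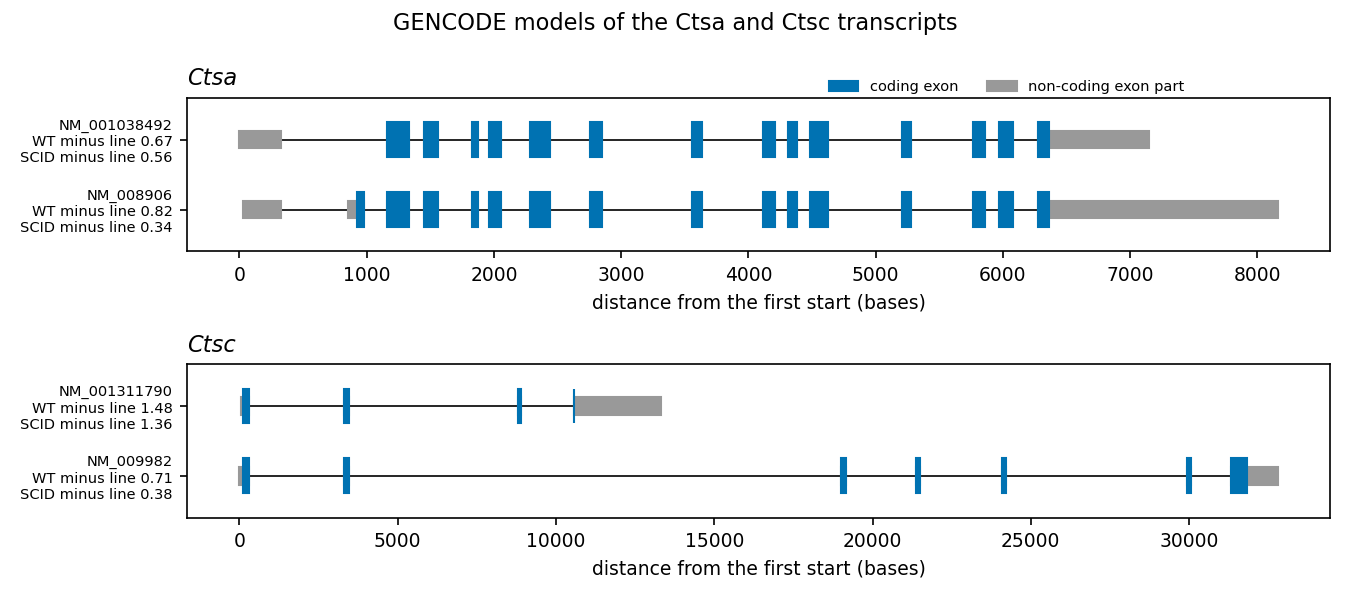
GENCODE vM21 models of the 2 Ctsa and 2 Ctsc transcripts, with distance from the first start in bases (x axis), coding exons in blue and other exon parts in grey; each transcript is labelled with its log2 difference from the line. The 4-exon Ctsc transcript, at 1.48 in WT and 1.36 in SCID, shares its first 2 exons with the 7-exon one, at 0.71 in WT and 0.38 in SCID.

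Ctsb, an endopeptidase and carboxypeptidase much studied in tumour invasion, had the highest gene value of WT minus SCID at 0.37 (1.29-fold), rank 300 of 11886. It was at 0.84 in WT minus line (1.79-fold) and 0.47 in SCID minus line (1.38-fold), and it lies on chromosome 14 from 63122462 to 63145923. Ctsz, a carboxypeptidase also called cathepsin X, was close behind at 0.34 in WT minus SCID and differed in its relation to culture. It was at 0.37 in WT minus line and 0.03 in SCID minus line, so the SCID pool differed from the line in Ctsz by 0.03 on this scale. Ctsz lies on chromosome 2 from 174427494 to 174439039.

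Ctsl, the endopeptidase that processes the invariant chain in thymic epithelium, was below 0 in WT minus SCID, at -0.09, and above 0 against the line, at 0.45 in WT and 0.54 in SCID. Ctsf, a papain-like endopeptidase of lysosomes, was the lowest of the 10 in WT minus SCID at -0.25, at percentile 3.35 of all genes. Against the line Ctsf was at 1.06 in WT (2.08-fold) and 1.30 in SCID (2.47-fold). Ctso was at -0.02 in WT minus SCID, or 0.066 once values were adjusted for GC content and length, and was about equally higher in both pools than in the line, at 1.26 in WT and 1.28 in SCID. Ctsl lies on chromosome 13 from 64361890 to 64370520, Ctsf on chromosome 19 from 4855129 to 4860912 and Ctso on chromosome 3 from 81932601 to 81956725. Of the 7 cysteine cathepsins 4 were above 0 in WT minus SCID, a share near the 51.5% of all genes.

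The aspartic cathepsins differed in size against the line. Ctse, an endosomal enzyme known from gastric epithelium and pancreatic cancer cells, was at 1.28 in WT minus line (2.42-fold) and 1.21 in SCID minus line (2.31-fold), and at 0.07 in WT minus SCID. Ctsd, a major protease of lysosomes in most tissues, was at 0.41 in WT minus line (1.32-fold) and 0.19 in SCID minus line (1.14-fold), and at 0.22 in WT minus SCID. Ctsd in SCID and Ctsz in SCID were the only values of the 20 against the line that lay within the interquartile range of all genes. Ctse lies on chromosome 1 from 131638314 to 131675507 and Ctsd on chromosome 7 from 142375916 to 142387870 on the minus strand.

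**Figure D3:**
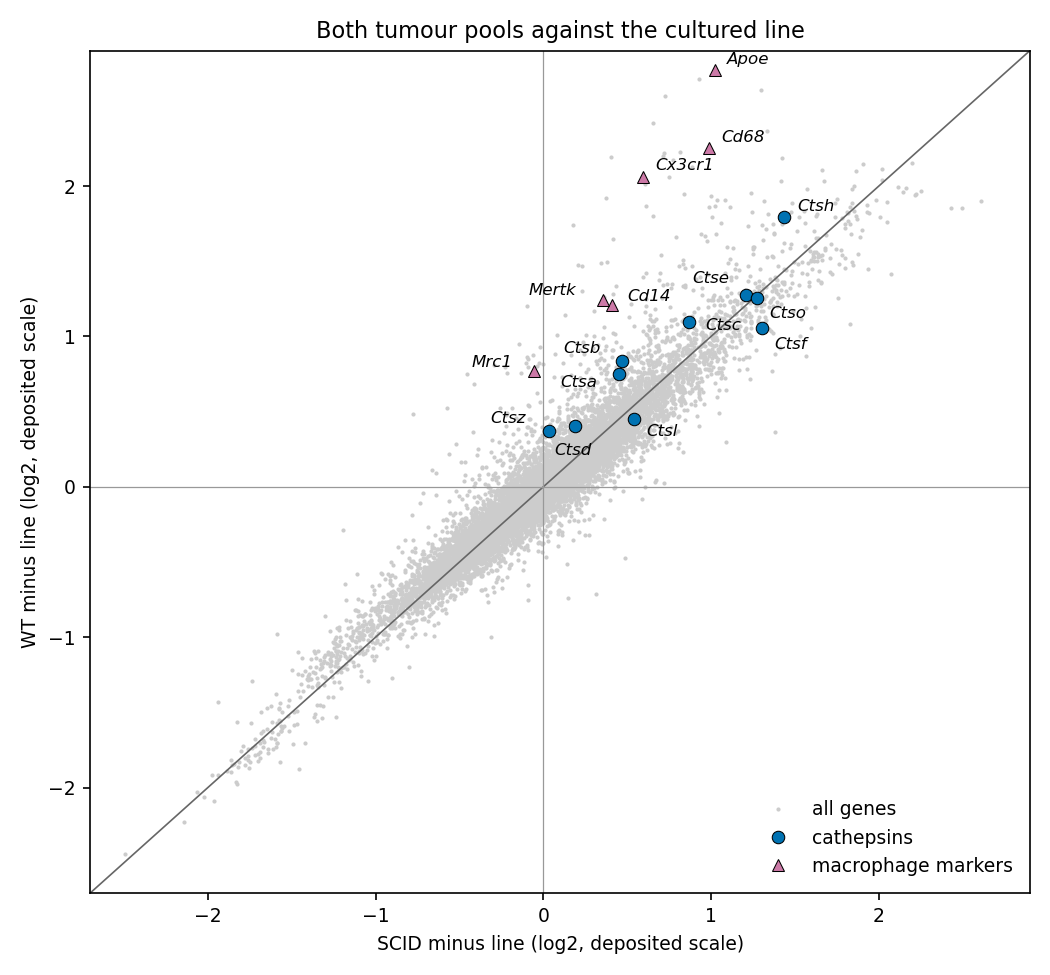
Log2 difference of each gene in SCID minus line (x axis) and WT minus line (y axis), with all 11886 genes in grey, 10 cathepsins as blue circles and 6 macrophage markers as pink triangles; the diagonal marks equal values in WT and SCID. Ctsf at 1.06 in WT and 1.30 in SCID lies below the diagonal, Ctsb at 0.84 in WT and 0.47 in SCID lies above it, and all 6 macrophage markers lie farther above it than any cathepsin.

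Macrophages are rich in cathepsins, and the values of their markers are set here beside those of the cathepsins. Of 24 listed macrophage markers 6 had a value, all above 0 in WT minus SCID, where 51.5% of all genes were. They ran from 0.80 for Cd14 to 1.75 for Apoe with a median of 1.07. Cx3cr1, a fractalkine receptor, was at 1.47 and Cd68 at 1.26. Against the line their median was 1.65 in WT and 0.50 in SCID, with Apoe at 2.77 in WT and 1.02 in SCID. All 10 cathepsins were smaller in WT minus SCID than each of these 6, and Ctsf, Ctsl and Ctso were below 0. In SCID minus line, Ctsh, Ctsf, Ctso and Ctse were above each macrophage marker. The cells had been sorted on GFP, and the other markers of the list, among them Csf1r, Adgre1, Ptprc and Lyz2, are not analysed here. The part of host macrophages in the cathepsin values was not tested. Of 14 fibroblast markers 3 had a value, with medians of 1.55 in WT minus line and 1.61 in SCID minus line, led by Col1a1 at 1.90 in WT and 2.61 in SCID; it was at -0.71 in WT minus SCID, where Ly6c1 was at 0.41. Has1, a hyaluronan synthase, was at 1.55 in WT minus line and 1.61 in SCID minus line. Endothelial Flt1 and Kdr, 2 of 8 listed, were at 1.66 and 1.09 in WT minus line, and at 1.63 and 0.80 in SCID minus line. The part of these cells was not tested either. The dendritic cell gene Zbtb46, 1 of 6 listed, was at -0.07 in WT minus SCID, 0.51 in WT minus line and 0.59 in SCID minus line. Markers of neutrophils, T and NK cells, B cells and osteoclasts are not analysed here. All 10 epithelial markers had a value. Their median was 0.18 in WT minus SCID, near the cathepsin median of 0.22, and 10 of 10 were above 0, against 51.5% of all genes. Against the line their median was -0.20 in WT and -0.33 in SCID. In WT minus line 3 of 10 were above 0, against 48.6% of all genes. In SCID minus line 2 of 10 were, against 48.3%. The part of this shift in the cathepsin values was not tested. Epcam was at 1.59 in WT minus line and 1.25 in SCID minus line, and Cldn4, a claudin, at 1.26 in WT and 1.01 in SCID. The keratin genes Krt19 and Krt7 were lower in both tumour pools, Krt19 at -0.95 in WT and -1.01 in SCID, and Krt7 at -0.99 in WT and -1.18 in SCID.

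Genes that mature, sort or inhibit cathepsins had smaller medians than the cathepsins against the line. All 16 genes for maturation and sorting had a value, with medians of 0.11 in WT minus line and 0.03 in SCID minus line. In WT minus line 1 was 2-fold higher, where 4.12% of all genes were, and in SCID minus line 0, where 3.65% were. The gene past 2-fold was Lgmn, the legumain protease that cuts several cathepsins to their mature form. It was at 1.01 in WT minus line, 0.26 in SCID minus line and 0.75 in WT minus SCID. The mannose 6-phosphate receptor genes were near 0, with Igf2r at 0.04 in WT minus line and -0.01 in SCID minus line. Gnptab, which encodes subunits of the enzyme that starts the mannose 6-phosphate tag, was at -0.42 in WT minus line and -0.51 in SCID minus line, and Gga2, a sorting adaptor, at 0.38 in WT and 0.46 in SCID.

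Inhibitors had 6 of 20 genes with a value, with medians of 0.22 in WT minus line and -0.04 in SCID minus line. Adjusted for GC content and length, over transcripts with a GENCODE sequence, these were 0.37 in WT minus line and 0.13 in SCID minus line. With the transcript farthest from 0 the median in SCID minus line was 0.29. Ctla2a, a cysteine protease inhibitor related to the cathepsin L propeptide, was the only one past 2-fold, at 1.45 in WT minus line and 1.60 in SCID minus line. Ctla2b, its close paralogue, was at 0.47 in WT and 0.59 in SCID, and reads may be shared between the pair. The secreted inhibitor Cst3, cystatin C, was at 0.21 in WT minus line and -0.20 in SCID minus line, and at 0.42 in WT minus SCID. Cstb, the cytosolic cystatin B, was at 0.08 in WT minus line and 0.02 in SCID minus line. Serpinb1a, an inhibitor of neutrophil serine proteases, was at 0.33 in WT minus SCID.

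Other lysosomal genes were mostly above 0 against the line but by less. Of 7 other lysosomal proteases 4 had a value, with medians of 0.38 in WT minus line and 0.06 in SCID minus line; Prcp, a prolylcarboxypeptidase, was at 0.82 in WT and -0.11 in SCID. Dpp7, a dipeptidyl peptidase, was at 0.43 in WT and 0.35 in SCID, and Tpp1, a tripeptidyl peptidase, at 0.33 in WT and 0.23 in SCID. Scpep1, a serine carboxypeptidase, was at -0.12 in WT and -0.22 in SCID. A list of 26 glycosidases, lipases and other hydrolases was added after the table was seen. In it 22 were above 0 in WT minus line and 19 in SCID minus line. The medians were 0.25 in WT and 0.13 in SCID. Over all genes 48.6% were above 0 in WT minus line and 48.3% in SCID minus line. At 2-fold or more, 4.12% of all genes were higher in WT minus line and 3.65% in SCID minus line. Hexa, a subunit of beta-hexosaminidase, was the only hydrolase of the list past 2-fold, at 1.79 in WT and 1.00 in SCID. Of 12 lysosomal membrane proteins, added likewise, 10 were above 0 in each comparison with the line and 0 passed 2-fold, with medians of 0.26 in WT and 0.24 in SCID; Npc1, a cholesterol transporter, was at 0.63 in WT and 0.64 in SCID, Lamp2 at 0.61 in WT and 0.78 in SCID, and Scarb2 at -0.44 in WT and -0.65 in SCID. Set beside the cathepsin medians of 0.95 in WT and 0.70 in SCID, these are descriptions of the same 3 libraries, and the difference between the lists was not tested.

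**Figure D4:**
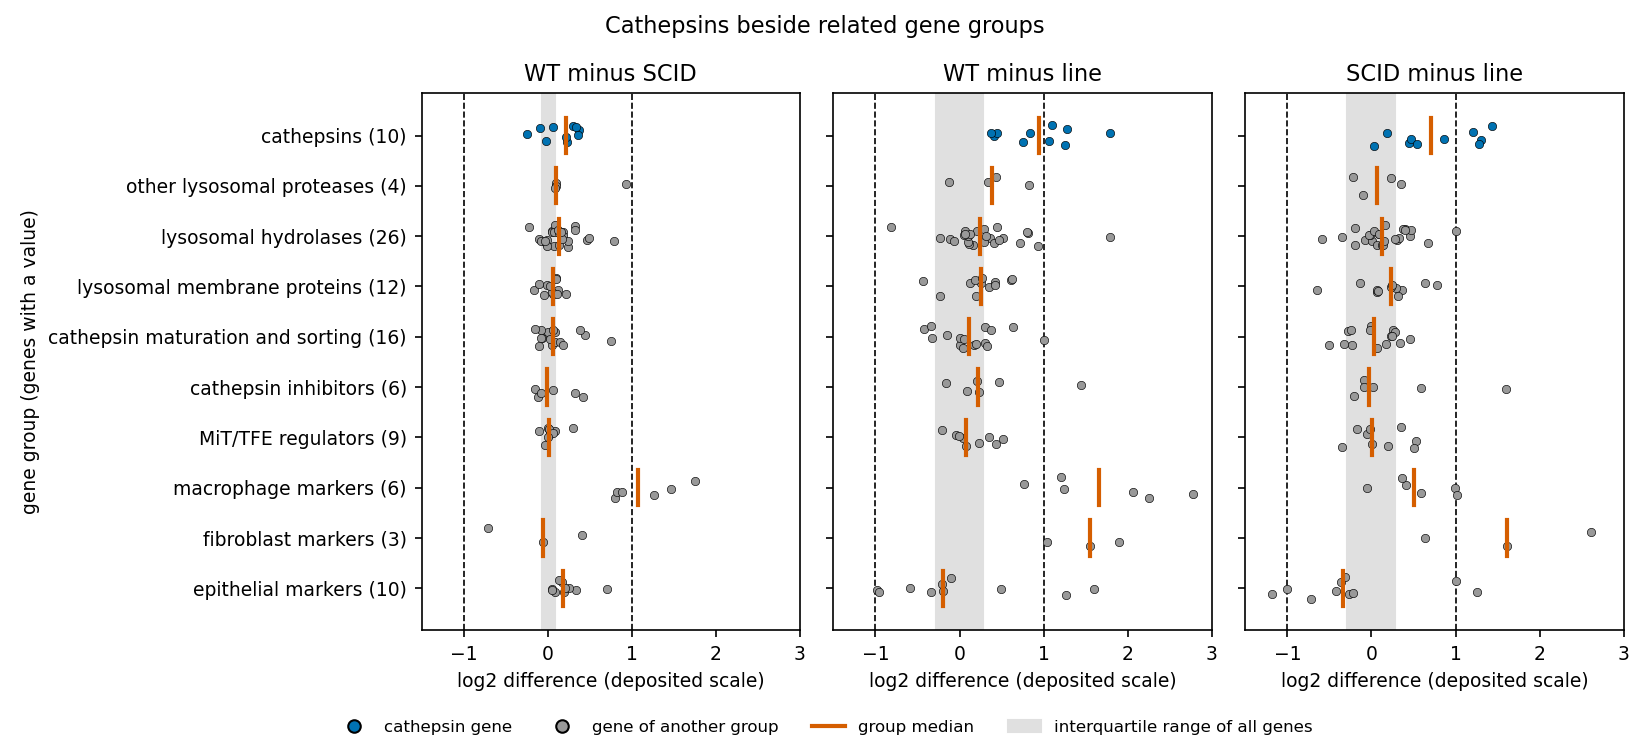
Log2 difference on the deposited scale (x axis) of each gene with a value (points) by gene group (y axis, number of genes in brackets) in the 3 comparisons; orange bars are group medians, grey bands the interquartile range of all genes and dashed lines 2-fold. The cathepsin median is 0.95 in WT minus line and 0.70 in SCID minus line, the hydrolase median 0.25 in WT and 0.13 in SCID, and the macrophage median 1.65 in WT and 0.50 in SCID.

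TFEB and its relatives, the MiT/TFE factors, are known to bind the motif CACGTG. Taken as 1 list, the genes of these factors and of their regulators had medians near 0. The list medians do not stand for the factors alone, so Tfeb and Tfe3 are given singly below. Of 12 MiT/TFE genes and their regulators 9 had a value, and 0 passed 2-fold. At 2-fold or more, 4.12% of all genes were higher in WT minus line and 3.65% in SCID minus line. The medians of the 9 were 0.01 in WT minus SCID, 0.07 in WT minus line and 0.01 in SCID minus line. With the transcript farthest from 0 the median in WT minus line was 0.43. Tfeb was at 0.30 in WT minus SCID, -0.05 in WT minus line and -0.35 in SCID minus line, and Tfe3 at 0.23 in WT minus line and 0.20 in SCID minus line. Zkscan3, described as a repressor of lysosomal genes, was at 0.51 in WT minus line and 0.50 in SCID minus line, and Fnip1, a partner of folliculin, at 0.43 in WT and 0.53 in SCID. The RNA of these factors does not measure their activity, which is set largely by their place in the cell.

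In antigen presentation, cathepsins cut the invariant chain and antigens for MHC class II. Of 11 genes of that pathway 2 had a value. H2-DMb1, a subunit of the peptide-loading chaperone, was at 1.80 in WT minus SCID, 2.20 in WT minus line and 0.40 in SCID minus line. Ifi30, a lysosomal thiol reductase, was at 1.03 in WT minus SCID, 0.80 in WT minus line and -0.23 in SCID minus line.

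The genes most like Ctsb and Ctsh, the 2 cathepsins with the largest WT minus SCID values, were found by Euclidean distance over WT minus line and SCID minus line. Nearest to Ctsb were Lat2 at a distance of 0.0125, Nfatc2 at 0.0151 and Idua, the lysosomal iduronidase, at 0.0418, among 280 genes within 0.25. Lat2 was at 0.84 in WT minus line and 0.46 in SCID minus line. Among the nearest to Ctsh were Fam167a at a distance of 0.0504 and Sdc3, a syndecan, at 0.0526, of 30 genes within 0.25. Sdc3 was at 1.83 in WT minus line and 1.48 in SCID minus line. With 3 libraries a pattern has only 2 free values, so likeness here is a weak description.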

How the data were processed

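Poly(A) RNA of 3 pooled samples was sequenced, 1 library per group, with RNA of 6 WT tumours and of 5 SCID tumours combined in equal amounts, per the labels. The authors deposited log2 fold changes per RefSeq transcript; the header names no log base, and log2 was assumed since DESeq2 1.20.0 appears in the submitters' processing notes. Those notes also name BWA, Partek, R 3.5.1 and mm9 without saying what each did. How libraries were scaled, rows chosen or values shrunk is not given in the sources used here. Values ran only from -2.49 to 2.77, so a fold is one on the deposited scale. The depth behind a value is unknown, and no interval can be given. The column named for SCID alone matched SCID minus line less WT minus line to within 1e-12, so it was taken as SCID over WT. Coordinates are the table's, 1-based; the deposited stop lies 1 base past the end. They match GRCm38 rather than mm9: 99.9% of 17761 transcripts found in a GRCm38.p6 RefSeq table lay on the same chromosome, and 7 of 13 cathepsin transcripts had exactly the span of their RefSeq gene.

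Gene values are means over transcripts, and a gene was called at 2-fold (log2 of 1). Python 3.11.15, numpy 2.4.6 and pandas 2.3.3 were used, and the gene means, the counts and the trend removal were tested on simulated data. Members, lists and alternatives were chosen with earlier results of these data known. Named genes are all cathepsins, in each list and comparison the 2 highest and 2 lowest past 2-fold (or the 2 farthest from 0), and the 3 nearest neighbours of 2 cathepsins, of which 1 is not reported here; any further gene was picked with its value in view. Alternatives were the median or farthest transcript, coding transcripts, each transcript counted, centring, a GC and length trend removed (GENCODE vM21 sequences for 93.2% of transcripts), thresholds of 1.5-fold and 4-fold, and leaving out the farthest member or, added after the table was seen, Ctse.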

Additional observations from a re-analysis of the deposited data

Results flagged for a closer look

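Only the cathepsins and the genes picked by rule from the lists were screened here. A gene is given where the tumour pools lay on opposite sides of the line, by at least 0.1 each. No cathepsin did so. Other genes of the table can meet this rule too, and their share over all genes was not computed. With 1 library per group the difference was not tested. Cst3 was at 0.21 in WT minus line and -0.20 in SCID minus line. Ifi30 was at 0.80 in WT and -0.23 in SCID. Nagpa, which uncovers the mannose 6-phosphate tag, was at 0.17 in WT and -0.27 in SCID. Prcp was at 0.82 in WT and -0.11 in SCID. Spint1, an epithelial protease inhibitor, was at 0.49 in WT and -0.22 in SCID.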

How the results depend on the processing

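Of 150 cathepsin values recomputed under an alternative, 147 kept their sign and moved by less than the pooled SD between transcripts. Many of these could not change by construction, so the count is no measure of robustness. All 13 transcripts are coding, the median of 2 transcripts is their mean, and 7 genes have 1 transcript. After removal of the GC and length trend Ctso was at 0.0657 in WT minus SCID, on the other side of 0. In that comparison 8 of 10 cathepsins were then above 0. The share of all genes above 0 was 51.5% before that removal and was not computed after it. Ctsz in SCID minus line was at 0.15 after the removal. With the transcript farthest from 0, Ctsc was at 1.48 in WT minus line and 1.36 in SCID minus line. At a 4-fold threshold 0 cathepsin genes were called in WT minus line and 0 in SCID minus line. A stricter threshold can only lower such a count, and the share of all genes past 4-fold was not computed. The call is on gene means: Ctsh had a mean of 1.79 in WT minus line, while its transcript NM_007801 was at 2.03 (4.10-fold). Without Ctse, or without the farthest member, the medians were 0.84 in WT minus line and 0.54 in SCID minus line. Without the GC and length trend the MHC class II median was 1.76 in WT minus SCID. It was then 2.2997 in WT minus line and 0.54 in SCID minus line. With the trend, over 2 genes, it was 1.41 in WT minus SCID, 1.496 in WT minus line and 0.085 in SCID minus line. The trend removal left out transcripts with no GENCODE sequence, so the medians may not cover the same genes. H2-DMb1 alone was at 1.80 in WT minus SCID, 2.20 in WT minus line and 0.40 in SCID minus line with the trend. Counted as transcripts, 10 of 13 were above 0 in WT minus SCID and 13 of 13 in both comparisons with the line. The share over all transcripts was not computed. Over all genes 51.5% were above 0 in WT minus SCID, 48.6% in WT minus line and 48.3% in SCID minus line. No paired analysis was possible because each group is 1 pooled library, and for the same reason no replicate could be left out. Unknown depth limits every value.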

Other observations

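Several lysosome-related genes differed more between WT and SCID than any cathepsin. Of 64 measured genes of the protease, hydrolase, membrane, sorting and inhibitor lists, 8 were above Ctsb, the highest cathepsin at 0.37 in WT minus SCID, which stood at percentile 97.5 of all genes. They were Prcp at 0.93, Hexa at 0.79, Lgmn at 0.75, Man2b1, a mannosidase, at 0.49, Gla, the alpha-galactosidase, at 0.47, Nagpa at 0.45, Cst3 at 0.42 and Psap, the precursor of the saposins, at 0.39. These were picked after their values were seen. The macrophage markers were at 0.80 to 1.75 in the same comparison, and their part in these values was not tested.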
